A study of Mus musculus with 2 samples.

Results

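The miR-181 family was examined in small RNA libraries of mouse embryonic stem cells that lack Dicer. The family was taken as every entry of the table of mature microRNA (miRNA) counts named miR-181a, miR-181b, miR-181c or miR-181d, either arm and any copy number, which gave 10 of the 1907 entries. They are 4 products of the 5′ arm of a hairpin (5p) and 6 of the 3′ arm (3p). The samples are 2 libraries of total RNA, called library 1 and library 2 after their titles, and form a single group. Both are Dicer knockout cells on a 129/Ola background, labelled E14 and blastocyst, grown with serum and LIF, the cytokine that keeps mouse stem cells undifferentiated. Their descriptions name them C1 and H11 and do not say whether these are separate clones. No library with Dicer was among the samples, so nothing here compares cells with and without the enzyme, and Dicer itself is not measured in a miRNA table.

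A miRNA is cut from a longer transcript in steps. Drosha releases a hairpin in the nucleus, Dicer removes the loop in the cytoplasm, and 1 strand of the resulting duplex is kept by an Argonaute protein, where bases 2 to 8, the seed, pair with target messenger RNAs. The miR-181 family is best known from the thymus, where miR-181a tunes the sensitivity of T cell receptor signalling, and from the brain. Its hairpins come in neighbouring pairs, an a with a b, or c with d.

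The 4 products of the 5′ arms are shown because they are counted as separate entries although they share the seed, which is written in capitals (RefSeq, GRCm38.p6); the prefix mmu, for mouse, is left out elsewhere.
mmu-miR-181a-5p: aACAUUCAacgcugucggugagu
mmu-miR-181b-5p: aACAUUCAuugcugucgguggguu
mmu-miR-181c-5p: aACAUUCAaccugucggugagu
mmu-miR-181d-5p: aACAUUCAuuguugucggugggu
All 10 entries of the family matched a RefSeq sequence by name. Of 1623 entries of the table with such a sequence, these 4 were the only ones with the seed ACAUUCA. Counted from the 5′ end, miR-181b-5p differs from miR-181a-5p by A9U, C10U and A21G over the 23 positions they share, with 1 more base at its 3′ end. The product miR-181d-5p carries the same changes with C12U added. The product miR-181c-5p equals miR-181a-5p with the base at position 11 left out, a G.

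The 6 products of the 3′ arms are shown because, unlike the 5p products of miR-181a and miR-181b, they tell the genomic copies apart. Bases 2 to 8 are in capitals.
miR-181a-1-3p: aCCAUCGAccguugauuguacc
miR-181a-2-3p: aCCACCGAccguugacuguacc
miR-181b-1-3p: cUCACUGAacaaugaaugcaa
miR-181b-2-3p: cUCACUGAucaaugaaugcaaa
miR-181c-3p: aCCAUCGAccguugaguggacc
miR-181d-3p: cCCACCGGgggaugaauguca
The 3p products of the miR-181a copies differ by U5C and U16C, and those of the miR-181b copies by A9U over 21 shared positions. The 3p product of the first miR-181a copy and miR-181c-3p have the same bases 2 to 8.

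The hairpins lie at 6 places in 3 clusters (GENCODE M21, GRCm38, the assembly also called mm10, which the submitters' processing notes name). On chromosome 1, plus strand, Mir181a-1 is at chr1:137966455-137966541 and Mir181b-1 at chr1:137966639-137966718, 97 bases apart. Both overlap an exon of the long noncoding RNA A430106G13Rik and an intron of the transcript Gm4258 on the same strand. On chromosome 2, plus strand, Mir181a-2 is at chr2:38852735-38852810 and Mir181b-2 at chr2:38853830-38853918, 1019 bases apart. Both lie opposite an intron of Nr6a1, which encodes a nuclear receptor that represses pluripotency genes when stem cells differentiate. On chromosome 8, minus strand, Mir181c is at chr8:84178873-84178961 and Mir181d at chr8:84178716-84178787, 85 bases apart. Both lie in an intron of Nanos3, on its strand; Nanos3 encodes an RNA-binding protein of germ cells.

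The libraries were shallow. Library 1 held 45222 counts and library 2 held 37476, so 1 count was 22.1 CPM (counts scaled to a total of 1000000) in library 1 and 26.7 CPM in library 2, and a count of 0 allows up to 66.3 and 80.1 CPM. Intervals below are 95% intervals and cover counting error only, not the spread between libraries. The labels mention no molecular identifiers, so copies of the same molecule cannot be told from separate molecules. Intervals and p-values take each count as separate and may be too narrow or too small. Of the miRNAs known from stem cells, all 12 entries of miR-290a, miR-291a, miR-292a, miR-293, miR-294 and miR-295, which belong to 1 cluster, had counts, together 3.57% of library 1 and 3.19% of library 2. The miR-302 and miR-367 entries, also known from pluripotent cells, had counts in 2 of 10, with 4 counts in each library. The 7 muscle entries (miR-1a, miR-133a, miR-206) and the 4 liver and endoderm entries (miR-122, miR-375) were at 0. These lists are short, and the zeros hold for the named entries alone. They do not show that other miRNAs of these lineages were absent. Entries outside the lists were not sorted by lineage, among them miR-499-5p (17 and 14 counts, library 1 first) and miR-192-5p (23 and 9).

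A read of miR-181a-5p or miR-181b-5p matches both chromosome 1 and chromosome 2, and how the authors counted reads with several genomic matches is not given in the sources used here. If such a read were counted at each locus, counts of these entries would be even. The non-zero counts were 20 and 36 for miR-181a-5p and 4 for miR-181b-5p, all even. Outside the family, among entries whose RefSeq sequence lies at more than 1 locus, 26 of 35 counts of 2 or more were even, or 74.3% (Wilson interval 57.9 to 85.8), against 204 of 354, or 57.6% (52.4 to 62.7), for entries at 1 locus. Values of 1, which are odd, are left out of these shares. With them and the family included, 13 of 42 non-zero counts of entries at more than 1 locus were odd. Counting each read at each of its loci would give no odd counts for entries at 2 loci, but could for entries at an odd number of loci. The 42 counts were not split by number of loci. Whether reads were counted more than once was not tested further. Main results that change when counts are divided by the number of loci are given both ways. Seed ranks and the entries nearest to miR-181a-5p were not recomputed under that division. The division was chosen after seeing the data.

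Counts of the miR-181 family were found in both libraries and came from few of its entries. The family held 68 counts in library 1, or 0.150% of the library (Wilson interval 0.119 to 0.191), and 79 counts in library 2, or 0.211% (0.169 to 0.263), a mean of 0.181% ± 0.0427 (SD, n = 2). In bulk RNA, fewer cells that make a miRNA and less of it per cell cannot be told apart. Late-numbered entries made up most of each library, and the 843 miRNAs numbered 1000 or below held 11624 counts of library 1 and 7784 of library 2. Of these counts, the family held 0.585% in library 1 (0.462 to 0.741) and 1.01% in library 2 (0.815 to 1.26). When the 1623 of 1907 entries with a RefSeq sequence were added up by seed, the ACAUUCA seed ranked 28 among 241 seeds with a count in library 1 and 22 among 245 in library 2. Of the 10 entries, 5 had a count in both libraries, 2 in library 2 alone, and 3 in neither; among all 1907 entries, 258 had a count in both and 1474 in neither.

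**Figure D1:**
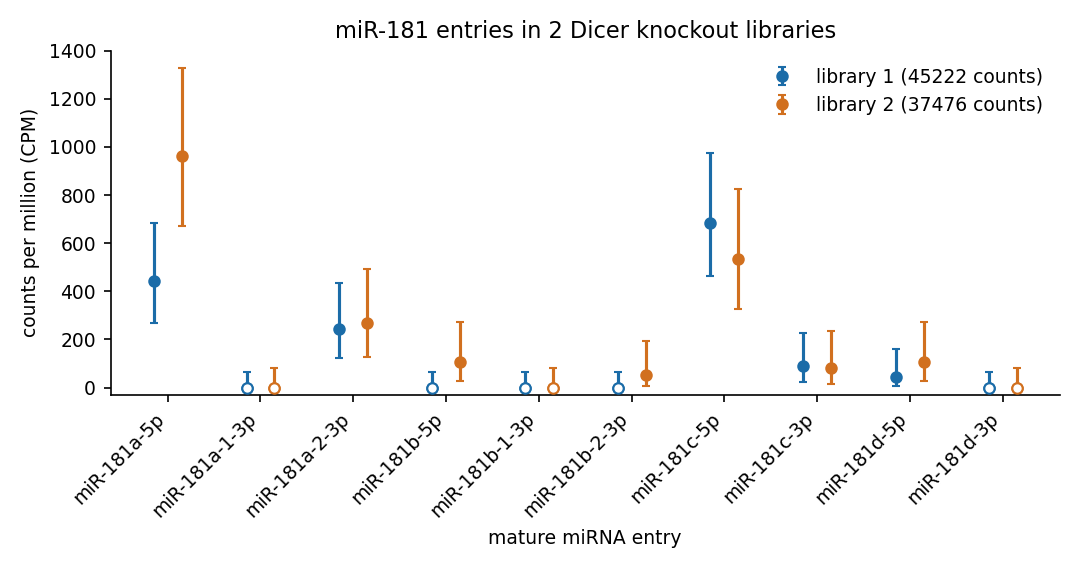
CPM (vertical axis) of each of the 10 miR-181 entries (horizontal axis) in library 1 (blue) and library 2 (orange). Bars are 95% exact Poisson intervals of the count; open points are counts of 0, with bars up to 3 counts. The points of miR-181a-5p and miR-181c-5p lie between 442 and 961 CPM, and all other points are at 267 CPM or below.

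Among the 5p products, miR-181a-5p and miR-181c-5p made up nearly the whole. The product miR-181a-5p, the member studied most in T cells, was counted 20 times in library 1 (442 CPM) and 36 times in library 2 (961 CPM), a mean of 701 ± 367 CPM (SD, n = 2). The product miR-181c-5p was counted 31 times in library 1 (686 CPM) and 20 times in library 2 (534 CPM), a mean of 610 ± 107 CPM (SD, n = 2). Together they held 51 of 53 5p counts of the family in library 1, or 96.2% (Wilson interval 87.2 to 99.0), and 56 of 64 in library 2, or 87.5% (77.2 to 93.5). Their means differed by less than the SD of miR-181a-5p, and the order of these paralogs was not the same in the libraries: miR-181c-5p was higher in library 1 and miR-181a-5p in library 2. With counts divided by the number of loci, miR-181a-5p stood at 10 and 18 counts, below miR-181c-5p in both libraries.

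The other 5p products were at or near the limit of detection. The product miR-181b-5p was at 0 in library 1, which allows up to 66.3 CPM, and 4 in library 2 (107 CPM). The product miR-181d-5p gave 2 counts in library 1 (44.2 CPM) and 4 in library 2 (107 CPM). In library 2 miR-181b-5p and miR-181d-5p thus had equal counts, and in library 1 they could not be ordered at this depth. With counts divided by the number of loci, miR-181b-5p stood at 2 counts in library 2, and miR-181d-5p, at 1 locus, stayed at 4.

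In both kinds of neighbouring pair, a with b and c with d, the member that lies upstream on its strand had more 5p counts. For miR-181a-5p over miR-181b-5p the ratio was at least 6.67 in library 1, computed against 3 counts (exact lower limit 4.94), and 9.0 in library 2 (exact interval 3.23 to 34.8). Over both libraries the counts were 56 and 4, a ratio of 14.0 (5.17 to 53.2). For miR-181c-5p over miR-181d-5p the ratio was 15.5 in library 1 (3.94 to 134) and 5.0 in library 2 (1.67 to 20.1). Each of these intervals lies above 1. Halving the counts of miR-181a-5p and miR-181b-5p leaves their ratio as it is.

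The 3p products separated the copies. The product miR-181a-2-3p gave 11 counts in library 1 (243 CPM) and 10 in library 2 (267 CPM), a mean of 255 ± 16.7 CPM (SD, n = 2). The corresponding product of the chromosome 1 copy, miR-181a-1-3p, had 0 counts in both libraries. With 0 of 21 counts over both libraries, the chromosome 1 copy could still account for up to 14.3% of the 3p counts of miR-181a. For miR-181b, miR-181b-2-3p was at 0 in library 1 and at 2 counts in library 2, and miR-181b-1-3p had 0 in both. All 23 copy-specific 3p counts, 11 in library 1 and 12 in library 2, were thus assigned to the chromosome 2 cluster. The 60 counts of miR-181a-5p and miR-181b-5p cannot be divided between chromosomes 1 and 2 by sequence. The chromosome 8 cluster gave 37 counts in library 1 and 27 in library 2 over both arms.

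The miR-181a precursors are shown for comparison, with both mature products in capitals (RefSeq, GRCm38.p6).
Mir181a-1: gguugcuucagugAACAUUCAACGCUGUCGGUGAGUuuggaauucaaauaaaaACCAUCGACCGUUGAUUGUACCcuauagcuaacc
Mir181a-2: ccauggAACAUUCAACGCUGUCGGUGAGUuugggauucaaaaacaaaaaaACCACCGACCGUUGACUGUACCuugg
The lower-case stretch between the products, which Dicer removes when it is present, is 17 bases long in Mir181a-1 and 21 in Mir181a-2.

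The 2 arms of each hairpin name were then compared, with the numbered copies of miR-181a and of miR-181b added together. The miR-181c hairpin gave mostly 5p counts. It had 31 5p and 4 3p counts in library 1, a 5p share of 88.6% (Wilson interval 74.0 to 95.5), and 20 and 3 counts in library 2, a share of 87.0% (67.9 to 95.5). For miR-181a there were 20 5p and 11 3p counts in library 1, a share of 64.5% (46.9 to 78.9), and 36 and 10 in library 2, a share of 78.3% (64.4 to 87.7). The hairpin names miR-181b and miR-181d were too low to test: miR-181b had 4 5p and 2 3p counts in library 2 and none in library 1, and all 6 counts of miR-181d were 5p.

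An exact binomial test against an equal split was run in each library over every hairpin name with both arms listed and at least 10 counts, with Benjamini-Hochberg adjustment over all of them. In library 1 43 of 71 hairpins (60.6%) had more 5p counts past an adjusted p of 0.05, and in library 2 39 of 66 (59.1%) did; more 3p counts were called for 17 (23.9%) and 19 (28.8%). For miR-181c the adjusted p of the exact test was 7.24e-06 in library 1 and 0.000701 in library 2. For miR-181a it was 0.169 in library 1 and 0.000265 in library 2; with counts divided by the number of loci its 5p share was 47.6% and 64.3%, and the exact test gave adjusted p = 1 and 0.203. A call for more 5p was thus common in these libraries, and the miR-181 hairpins are read against that. The median 5p share over the hairpins tested was 83.7% in library 1 and 83.0% in library 2, with miR-181c above it and miR-181a below it in both. Only the interval of miR-181a in library 1 (46.9 to 78.9) excluded the median. Summed over the family, 5p products held 77.9% of the counts in library 1 (66.7 to 86.2) and 81.0% in library 2 (71.0 to 88.1). Over all other hairpins listed with both arms they held 82.5% and 77.1%. Such sums are weighted by counts, so the most abundant hairpins weigh most in them, whereas the median takes each hairpin equally.

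A difference in arm share between the libraries was not detectable at this depth. The 5p share of miR-181a was 13.7 percentage points higher in library 2 (Fisher's exact test, p = 0.203, adjusted p = 1 over the 58 hairpins that reached 10 counts in both). With counts divided by the number of loci the shares were 47.6% and 64.3%, and their difference was not tested. The difference for miR-181c was -1.61 points (Fisher's exact test, p = 1, adjusted p = 1). Of the 58 hairpins, 3 (5.17%) passed the adjusted threshold.

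**Figure D2:**
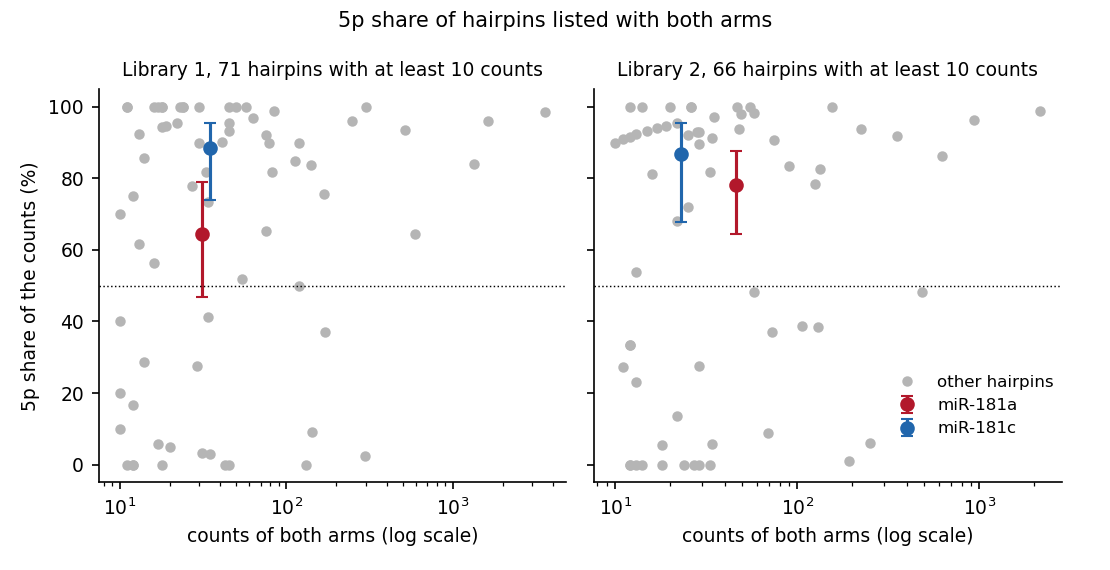
Share of 5p counts (vertical axis, percent) against the counts of both arms (horizontal axis, log scale) for each hairpin name with at least 10 counts, in library 1 (left) and library 2 (right). Grey points are other hairpins, the coloured points are miR-181a and miR-181c with 95% Wilson intervals, and the dotted line marks equal arms; only the interval of miR-181a in library 1 (46.9 to 78.9) reaches that line.

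The libraries were compared entry by entry, which sets library 2 against library 1 and no condition against another. Entries whose counts summed to 10 or more entered a two-sided Fisher's exact test of that miRNA against all other counts, with Benjamini-Hochberg adjustment over all 129 tested. A call needed an adjusted p below 0.05 and at least a 2-fold difference in CPM. By this rule 10 of the 129 (7.75%) were called, with 6 (4.65%) at a higher CPM in library 2 and 4 (3.1%) at a higher CPM in library 1. Of the miR-181 entries 3 reached the count minimum and 7 did not.

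Of these 3, miR-181a-5p was called, at 2.17-fold higher CPM in library 2 (log2 ratio 1.12, Fisher's exact test, adjusted p = 0.0251). The log2 ratio of miR-181c-5p was -0.36 (Fisher's exact test, adjusted p = 0.692), and that of miR-181a-2-3p, from the other arm of the miR-181a hairpin, was 0.13 (Fisher's exact test, adjusted p = 0.957). Over all 129 the median log2 ratio was -0.05 and the median size of the ratio without its sign was 0.52. The call of miR-181a-5p was lost when every miRNA with a count was tested (Fisher's exact test, adjusted p = 0.0844). It was also lost with counts divided by the number of loci, at 2.17-fold (Fisher's exact test, adjusted p = 0.222). It has no replicate check, because there is 1 library on each side.

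The ratio of the leading paralogs does not depend on how the libraries are scaled. Counts of miR-181a-5p over those of miR-181c-5p gave 0.645 in library 1 (exact interval 0.349 to 1.17) and 1.80 in library 2 (1.01 to 3.28). A single Fisher's exact test of this ratio between the libraries gave p = 0.0120, unadjusted and chosen after the values were seen. Over both libraries the ratio was 1.10 (0.738 to 1.64). The ratio does depend on how reads of 2 loci were counted: divided by the number of loci it was 0.323 in library 1 (0.141 to 0.675) and 0.90 in library 2 (0.449 to 1.79), with p = 0.0377 by the same exact test, unadjusted.

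**Figure D3:**
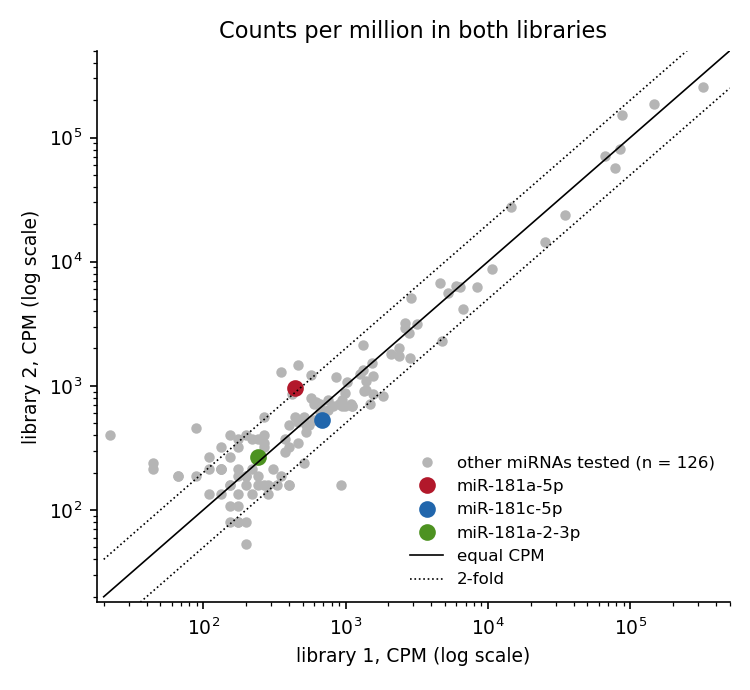
CPM in library 1 (horizontal axis) and library 2 (vertical axis), both on log scales, for the 129 miRNAs tested. The solid line marks equal CPM and the dotted lines a 2-fold difference; miR-181a-5p lies just beyond the upper dotted line at 2.17-fold, while miR-181c-5p and miR-181a-2-3p lie between the dotted lines.

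The entries nearest to miR-181a-5p in level were found by the Euclidean distance of log2(CPM + 1) over the 2 libraries, which 2 points can only describe. They were miR-25-3p with 19 and 32 counts (distance 0.19), miR-423-3p with 26 and 30 (0.46), miR-294-3p with 26 and 46 (0.52) and miR-411-5p with 16 and 48 (0.52), library 1 given first. The product miR-294-3p is among the stem cell entries named above.

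Levels of miRNAs of lineages in which miR-181 is known were set beside these values. The blood and lymphoid list (miR-150, miR-155, miR-223, miR-142a and miR-146a) had counts in 6 of 10 entries, and its sum was 37 counts in library 1 (0.0818%) and 24 in library 2 (0.0640%). Within it miR-150-5p, abundant in mature lymphocytes, had 17 and 11 counts, and miR-146a-5p had 9 and 6. The miR-142a hairpin had 7 5p and 3 3p counts in library 1, and in library 2 it stayed below 10 counts of both arms. In contrast, miR-155-5p and both arms of miR-223, a myeloid miRNA, were at 0. The neural list (miR-9, miR-124, miR-128 and miR-125b) had counts in 6 of 10 entries, with 31 counts in library 1 (0.0686%) and 10 in library 2 (0.0267%). Within it miR-9-5p had 18 and 6 counts, and miR-124-3p was at 0 in both libraries. The other neural entries with counts stayed below 10 counts in each library. Both lists had a lower share in library 2, a difference that was not tested. Between the libraries miR-150-5p, miR-146a-5p and miR-9-5p were not called. In library 2 miR-181c-5p was at a lower CPM, without a call, and miR-181a-5p at a higher one. The part of these lineages in the miR-181 counts was not tested.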

How the data were processed

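Total RNA of 2 Dicer knockout samples was turned into small RNA libraries by the TruSeq protocol, per the labels' protocols. The deposited table holds raw counts per mature miRNA, not normalized, 1 column per sample. The submitters' processing notes name cutadapt, STAR, featureCounts and mm10; their settings, the miRNA annotation and the treatment of reads with several matches are not given in the sources used here. Nothing says that the samples came from separate cultures, so the spread between them may be technical. With 1 group of 2 libraries no model with replicates could be fitted; the ratio of miR-181a-5p to miR-181b-5p was taken from summed counts where library 1 had 0. CPM uses the table's total. Named were all family entries, others with their seed, marker entries with at least 10 counts in a library, and the 4 nearest entries. Marker entries named at 0 or below 10 counts and the chromosome 8 neighbours were chosen after their values were seen. The members and lists were chosen with earlier results of these data known.

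On simulated libraries Fisher's exact test recovered 174 of 200 miRNAs with at least 20 counts changed 4-fold (1907 entries, 5 false calls in 1138 tests), and the arm test 100 of 100 hairpins set to a 90% 5p share (776 hairpin names, 5 false calls in 610). Simulated counts carried counting error alone, so false calls from any other spread are not covered. Smaller differences, such as that of miR-181a-5p, were not simulated. Alternatives covered library scale (TMM from edgeR 4.0.16, size factors from DESeq2 1.42.0), count and fold minimums, denominators, each library left out and, chosen after seeing the data, counts divided by the number of RefSeq loci and rounded (an entry with no RefSeq sequence was taken as 1 locus). Python 3.11.15, scipy 1.17.1 and R 4.3.3 were used.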

Additional observations from a re-analysis of the deposited data

How the results depend on the processing

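Testing every miRNA with a count left the log2 ratio of miR-181a-5p at 1.12 but raised its adjusted p to 0.0844 (Fisher's exact test, 0.00249 to 0.0367 under the other scales and minimums), since 433 miRNAs were then tested; the number of miR-181 entries called went from 1 to 0. A fold minimum of 4 also gave 0, by construction. TMM, DESeq2 size factors, a scale from miRNAs numbered 1000 or below, one without the 10 most abundant entries, at least 20 counts, and no fold minimum each kept the call of miR-181a-5p, with log2 ratios of 1.07 to 1.43. The setting with miRNAs numbered 1000 or below changed both the scale and the miRNAs tested, 112 in place of 129; the median log2 ratio was 0.22 under it and -0.05 as reported, and 9 of 10 calls were higher in library 2, against 6 of 10 as reported. The number of miRNAs called was 25 without a fold minimum and 3 with 4-fold. The mean share of the family was 0.252% without the most abundant entry and 0.80% of miRNAs numbered 1000 or below. Without miR-181a, the mean 5p share of the family was 87.0%. Counts divided by the number of loci gave a log2 ratio of 1.12 for miR-181a-5p with its call lost (Fisher's exact test, adjusted p = 0.222), 0 miR-181 entries called, and mean shares of 32.1% for miR-181a-5p among 5p counts, 74.4% for 5p in the family and 56.0% for 5p in miR-181a; the rise in p follows from fewer counts. Under this division the mean share of the family was 0.144%, and 9 of 126 miRNAs tested were called. Leaving out each library gave 0.150% to 0.211% for the family share, 37.7% to 56.2% for miR-181a-5p among 5p counts (mean 47.0%), 77.9% to 81.0% for the 5p share of the family and 64.5% to 78.3% for that of miR-181a. The ratio of miR-181a-5p to miR-181b-5p, 14.0 over both, was 6.67 in library 1, computed against 3 counts (exact lower limit 4.94), and 9.0 in library 2. No paired analysis was possible because the samples form a single group. At this depth 7 of 10 entries could not be tested.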

Other observations

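The hairpins of miR-23a, miR-27a and miR-24 also lie on chromosome 8, near the miR-181c and miR-181d pair on the other strand. Their counts were low: miR-23a-3p had 0 counts in library 1 and 1 in library 2, miR-27a-3p had 3 and 1, miR-27a-5p had 3 and 2, and miR-24-3p, which a second copy elsewhere also encodes, had 2 and 4. The product miR-181c-5p alone had 31 and 20.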
